A study of Rattus norvegicus with 14 samples.

Results

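A set of 9 genes of the outer epidermal barrier was followed in newborn rat foreskin, out of the 14497 genes tested. They were the probe sets annotated with exactly 1 symbol among Ivl, Lce1f, Sbsn, Lgals7, Tgm1, Tgm3, Alox12b, Aloxe3 and Grhl3, with the brightest taken where a gene had several. Each of the 9 had 1 probe set, so no choice between probe sets was needed, and all 9 were measured.

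The cornified envelope is the tough protein shell that replaces the plasma membrane of a keratinocyte as it dies at the skin surface. Transglutaminases cross-link precursor proteins such as involucrin and the late cornified envelope proteins into this shell, and lipoxygenases act on ceramides that become bound to its outer face and seal the barrier against water loss. The transcription factor GRHL3 is needed for the barrier to form before birth and drives several of these genes, Tgm1 among them.

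The samples came from Sprague Dawley pups on postnatal day 5. Their mothers had received corn oil, the vehicle, or flutamide at 5 mg/kg/day by mouth from gestational day 16 to 20. Flutamide blocks the androgen receptor, and the comparison asks how its block before birth left the foreskin. Each group had 7 litters, with RNA of 2 foreskins of a litter pooled on 1 Affymetrix array, so the replicate is the litter. Values are the log2 of array brightness after RMA, the authors' normalisation, and a difference of 1 on this scale is a change of 2-fold.

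The tissue was whole foreskin. Of 8 suprabasal keratinocyte markers measured, 5 were brighter than the median gene, Krt1 and Krt10 most of all, and 3 were dimmer, Krt77, Skint1 and Krt2. The suprabasal keratin gene Krt10 averaged 12.34 ± 0.09 in the corn oil group and 12.34 ± 0.04 in the flutamide group (SD, n = 7 each). Its partner Krt1 was at 11.92 ± 0.08 and 11.97 ± 0.06, and the basal keratin gene Krt14 at 9.87 ± 0.12 and 9.82 ± 0.16 (SD, n = 7 each). The dermal collagen gene Col1a1, at 9.01 ± 0.14 and 9.08 ± 0.17 (SD, n = 7 each), was bright as well. In whole tissue, fewer cells of a type and less RNA per cell cannot be told apart. The 14 arrays were alike, with medians within 0.073 of each other and correlations from 0.984 to 0.992 between samples.

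Alox12b and Tgm3 had the smallest p-values of the members between groups, though neither passed over all genes. Their promoters and that of Grhl3, the regulator, are shown. Each is the 250 bases before the RefSeq start site, from the GRCr8 assembly and read 5′ to 3′ on the gene's strand. Capitals mark a TATA box (TATAAA), which only the Tgm3 stretch holds, 37 to 32 bases before the start.
Alox12b (chr10:54361648-54361897, plus strand): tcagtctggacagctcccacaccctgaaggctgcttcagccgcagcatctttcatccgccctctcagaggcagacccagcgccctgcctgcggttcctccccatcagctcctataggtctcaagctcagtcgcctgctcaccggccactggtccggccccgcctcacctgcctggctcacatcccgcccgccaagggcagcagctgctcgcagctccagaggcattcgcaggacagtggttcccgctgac
Tgm3 (chr3:137681559-137681808, plus strand): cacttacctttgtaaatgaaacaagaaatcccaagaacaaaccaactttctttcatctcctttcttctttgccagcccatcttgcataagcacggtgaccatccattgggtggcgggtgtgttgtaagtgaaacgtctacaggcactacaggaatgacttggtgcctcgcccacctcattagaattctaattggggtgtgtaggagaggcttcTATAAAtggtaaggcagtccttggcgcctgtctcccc
Grhl3 (chr5:153089891-153090140, minus strand): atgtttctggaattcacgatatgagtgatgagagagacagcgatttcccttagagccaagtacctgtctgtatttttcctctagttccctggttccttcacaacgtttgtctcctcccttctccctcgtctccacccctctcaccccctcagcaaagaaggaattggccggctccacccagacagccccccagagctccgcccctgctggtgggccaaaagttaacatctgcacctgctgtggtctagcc

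Start sites of all 9 genes were found in RefSeq, 10 windows in all because Sbsn has 2. The windows of Ivl, Lgals7, Tgm1 and Aloxe3 and that of the inner Sbsn start lay inside the gene's own RefSeq span. They are therefore not upstream of the whole gene. The outer Sbsn window overlapped the span of another gene, Tmem147. Those of Tgm3 (LOC134486444), Alox12b (LOC134480813) and Lgals7 (LOC103689966) also overlapped the span of another gene. On both strands none of the 10 held the palindrome AACCGGTT, the letters known as the grainyhead site, which 0.146% of 33465 windows of the same length held. The looser AACCNGTT, which includes the former, was also in 0 of the 10 windows and in 1.76% of all. The AP-1 letters TGANTCA were in 1 of the 10 windows and in 6.34% of all, and TATAAA was in 1 of the 10 and in 12.9% of all. The AP-1 matches were both before the inner start of Sbsn, at 182 to 176 and 76 to 70 bases upstream, and are shown in capitals with 10 bases on each side.
Sbsn, outer match: atcacgtccaTGACTCAtcctgtcttc
Sbsn, inner match: caggggcaatTGAGTCAcgaggggtgg

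None of the 9 genes passed the test between flutamide and corn oil litters, and the differences were small. The 4 genes grouped here as envelope proteins, Ivl, Lce1f, Sbsn and Lgals7, had lower means in flutamide litters. Those of the 2 transglutaminases, the 2 lipoxygenases and Grhl3 had higher means, and the folds of the 9 ran from 0.940 to 1.10. The largest differences were 0.14 for Alox12b and 0.12 for Tgm3 on the log2 scale. No member reached an adjusted p under 0.05 in limma, which called 1 of 14497 genes, 0.0069% of them. The smallest adjusted p among the members was 0.507.

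Read without adjustment, 1 of the 9, Alox12b, had a limma p under 0.05, where 9.16% of all genes did. In 0 of the 9 did the groups lie apart with no overlap, against 0.124% of all genes. Of the 9 differences, 5 were above 0 (55.6%), against 52.3% of all genes, with a median of 0.044 for the members and 0.0048 for all genes. The 95% confidence intervals of the 9 folds lay between 0.842 and 1.20, so changes of more than about 1.20-fold in either direction were outside every interval. Of the fits that left out 1 litter, those without corn oil replicate 1, 2 or 3 or flutamide replicate 4 or 6 had 0 members at an unadjusted p under 0.05. Those without corn oil replicate 7 or flutamide replicate 2 or 7 had 2. The share of all genes at that threshold in these fits is not given here.

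**Figure D1:**
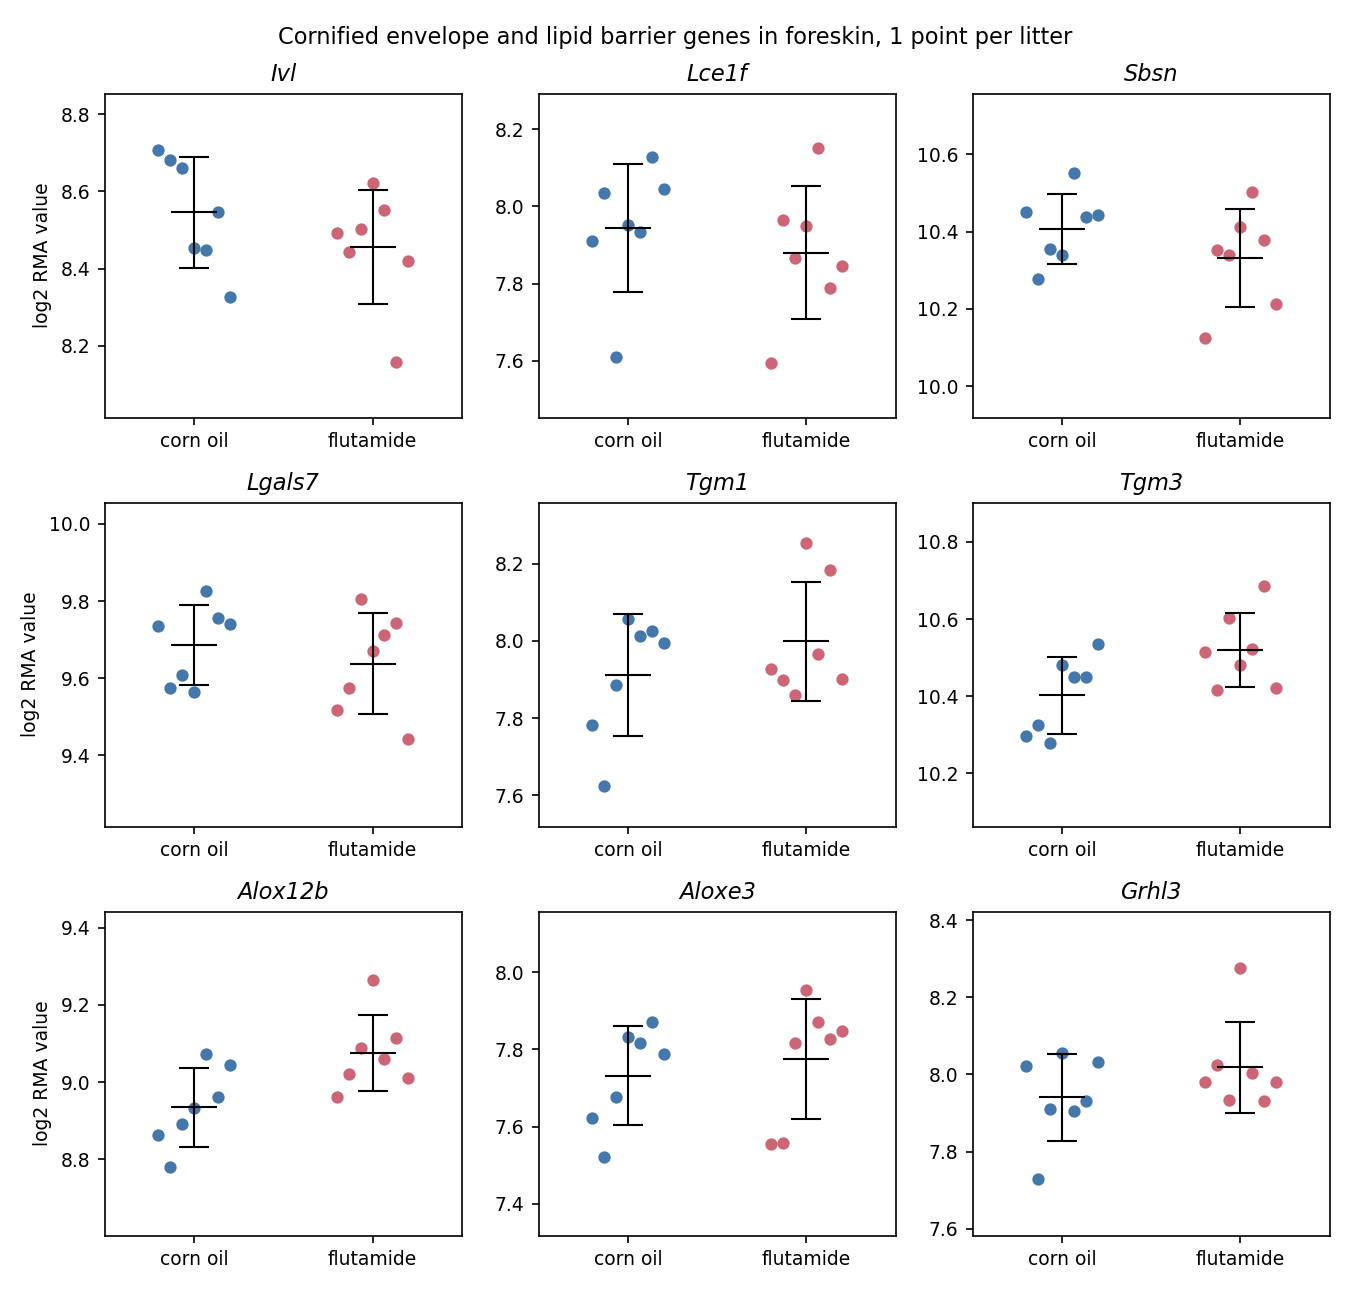
Log2 RMA values of the 9 genes in each litter (points, in order of replicate number), with the mean and SD of each group of 7 (black). Each panel spans the same height on the log2 axis. The groups overlap in every panel, and all 7 flutamide litters lie above the corn oil mean for Alox12b and Tgm3.

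Among the precursors of the envelope, involucrin (Ivl, probe set 10824735) is a glutamine-rich scaffold laid down early in envelope assembly. In corn oil litters Ivl ran from 8.33 to 8.71 with a median of 8.55, and in flutamide litters from 8.16 to 8.62 with a median of 8.49. No flutamide litter exceeded the highest corn oil litter, and 5 of 7 lay below the corn oil mean. The difference was -0.09 (SE 0.08), a 0.940-fold level, with an adjusted p of 0.759 in limma. Without flutamide replicate 6, the lowest litter, it was -0.04, and without corn oil replicate 7 it was -0.13.

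Lce1f encodes a late cornified envelope protein, a small cysteine-rich precursor added near the end of the process. Its values ran from 7.61 to 8.13 with a median of 7.95 in corn oil and from 7.59 to 8.15 with a median of 7.87 in flutamide litters. The ranges were almost the same, and each group had 1 litter near 7.6, corn oil replicate 3 and flutamide replicate 1. The difference was -0.06 (SE 0.08; limma adjusted p = 0.859). It was -0.12 without corn oil replicate 3 and -0.02 without flutamide replicate 1. Genes of this family are near copies that may share probes, so the value may not be of Lce1f alone.

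Suprabasin, the product of Sbsn, is a protein of the differentiated upper layers and a transglutaminase substrate. Its values ran from 10.28 to 10.55 with a median of 10.44 in corn oil and from 10.12 to 10.50 with a median of 10.35 in flutamide litters. The lowest values were those of flutamide replicates 1 and 7, below all corn oil litters. The difference was -0.08 (SE 0.06; limma adjusted p = 0.757), and -0.04 without flutamide replicate 1.

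Lgals7 encodes galectin-7, a sugar-binding protein of stratified epithelia. Its place with the envelope proteins is a grouping made here. It ran from 9.56 to 9.83 with a median of 9.74 in corn oil and from 9.44 to 9.81 with a median of 9.67 in flutamide litters. Flutamide replicates 1 and 7 were again below every corn oil litter, and the difference was -0.05 (SE 0.07; limma adjusted p = 0.867). It was -0.016 without flutamide replicate 7 and -0.076 without flutamide replicate 3, the highest of that group.

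The transglutaminases join these proteins by bonds between glutamine and lysine. Tgm1, whose product is anchored to the membrane, ran from 7.62 to 8.06 with a median of 7.995 in corn oil and from 7.86 to 8.25 with a median of 7.93 in flutamide litters. Flutamide replicates 4 and 6 were above every corn oil litter, while the flutamide median was the lower of the medians. The difference of the means was 0.09 (SE 0.08; limma adjusted p = 0.777), and 0.04 without corn oil replicate 2.

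Tgm3, whose product is a soluble transglutaminase of epidermis and hair follicle, was the brightest member over both groups together. In corn oil litters alone its mean was 10.402, just under the 10.408 of Sbsn. In corn oil litters it ran from 10.28 to 10.53 with a median of 10.45, and in flutamide litters from 10.42 to 10.68 with a median of 10.51. All 7 flutamide litters were above the corn oil mean, and flutamide replicates 3 and 6 were above every corn oil litter. The same 2 litters had the highest means of 5 mucosal epithelium markers, 7.48 and 7.52 against 6.72 to 7.28 in the other flutamide litters. Among corn oil litters the highest mucosal mean, 7.21, was that of replicate 1, where Tgm3 was at 10.30, near the low end. The part of that epithelium in the Tgm3 values was not tested. The difference was 0.12 (95% interval -0.01 to 0.24), a 1.09-fold level. Its p was 0.0645 in limma and 0.0460 in the two-sided exact permutation test over the 3432 splits of the litters, and 0.573 and 0.569 after adjustment over all genes.

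The lipoxygenases work in sequence on the linoleate of ceramides, Alox12b (12R-LOX) before Aloxe3 (eLOX3). Alox12b ran from 8.78 to 9.07 with a median of 8.93 in corn oil and from 8.96 to 9.26 with a median of 9.06 in flutamide litters. All 7 flutamide litters lay above the corn oil mean and 3 above the highest corn oil litter. The difference was 0.14 (95% interval 0.01 to 0.27), a 1.10-fold level. Its p was 0.0321 in limma and 0.0210 in the exact permutation test, and it did not pass over all genes (adjusted p = 0.507 in limma and 0.477 for the exact test). By p-value it stood at place 918 of the 14497 genes.

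Aloxe3 had the smallest difference of the 9. It ran from 7.52 to 7.87 with a median of 7.79 in corn oil and from 7.56 to 7.95 with a median of 7.83 in flutamide litters. The means differed by 0.04 (SE 0.07; limma adjusted p = 0.904). With 1 litter left out the difference ran from 0.0084, without corn oil replicate 2, to 0.080, without flutamide replicate 1. Flutamide replicates 1 and 2 were at 7.56 each, apart from the other 5 flutamide litters. Whether the 2 lipoxygenases differ from each other in response was not tested.

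Grhl3, the regulator, ran from 7.73 to 8.06 with a median of 7.93 in corn oil and from 7.93 to 8.28 with a median of 7.98 in flutamide litters. Its highest value was that of flutamide replicate 4, the others of that group ending at 8.02. The difference was 0.08 (SE 0.07; limma adjusted p = 0.761), and 0.03 without that litter.

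**Figure D2:**
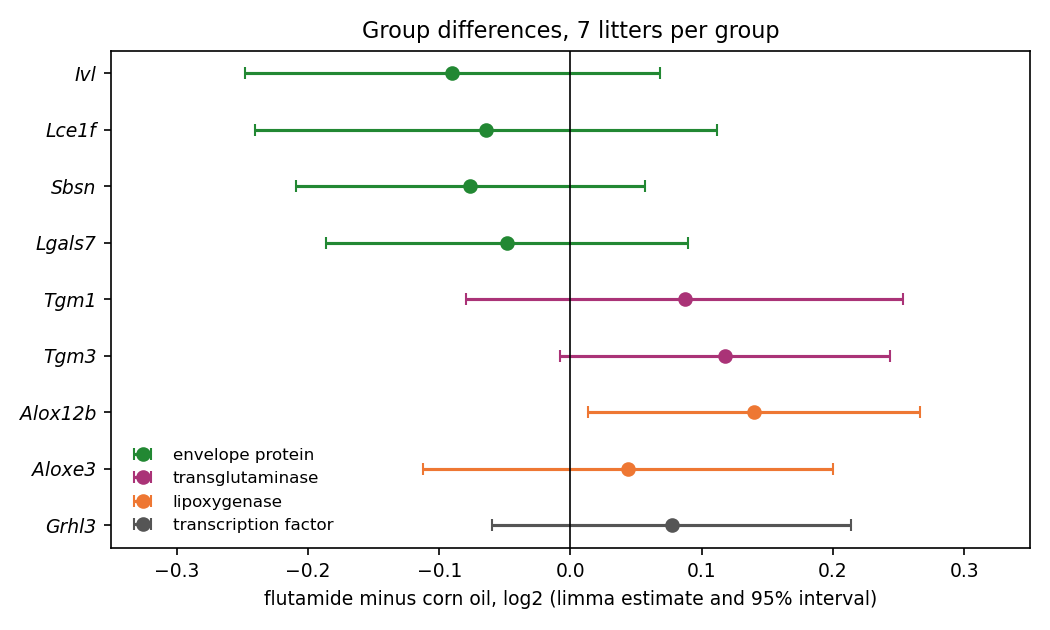
Difference between flutamide and corn oil litters for each gene (points, log2 scale) with limma's 95% confidence interval, coloured by the role of the protein. The 4 genes grouped as envelope proteins, Lgals7 among them, lie below 0 and the other 5 genes above. Only the interval of Alox12b, from 0.01 to 0.27, leaves out 0.

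Averages of the same genes by role restate this split in each litter and add no further evidence for it. The mean of the 4 genes grouped as envelope proteins was 9.15 ± 0.06 for corn oil and 9.08 ± 0.11 for flutamide (SD, n = 7 each). The mean of the 5 enzyme and regulator genes was 8.58 ± 0.11 and 8.68 ± 0.09 (SD, n = 7 each). Within each litter, the second mean minus the first ran from -0.75 to -0.41 in corn oil and from -0.55 to -0.27 in flutamide litters. Of the 7 flutamide litters 4 were above every corn oil litter, and the other 3 lay within the corn oil range. The roles were assigned with the signs of some of these genes already open to view in earlier results of these data, so no test was made of the split.

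All 9 genes were brighter than the median gene. With both groups together the order of brightness was Tgm3, Sbsn, Lgals7, Alox12b, Ivl, Grhl3, Tgm1, Lce1f and Aloxe3. Brightness depends on how well a probe set binds, so this is an order of array values and not of RNA amounts. Over the 14 arrays the means ran from 10.46 ± 0.11 (SD, n = 14) for Tgm3 to 7.75 ± 0.14 (SD, n = 14) for Aloxe3. Tgm3 and Sbsn averaged 10.40 and 10.41 in corn oil and 10.52 and 10.33 in flutamide litters. Over both groups their mean gap of 0.09 was smaller than the SD of that gap between arrays, 0.16. The same held for Grhl3, Tgm1 and Lce1f, with mean gaps of 0.02 (SD 0.12) from Grhl3 to Tgm1 and 0.04 (SD 0.23) from Tgm1 to Lce1f, and for Aloxe3, 0.16 (SD 0.18) below Lce1f. The other neighbours were ordered alike on all 14 arrays, with gaps from 0.50 to 0.71.

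The brightest members, Tgm3, Sbsn, Lgals7 and Alox12b, varied less between litters than the median gene. The SD within groups was 0.099 for Tgm3, 0.10 for Alox12b, 0.11 for Sbsn and 0.12 for Lgals7, below the 0.14 of the median gene. Grhl3, which was dimmer, had an SD of 0.12 as well. The SD was largest for Lce1f, at 0.17.

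Most of the 9 genes tended to be high or low in the same litters. Corn oil replicate 2 had the lowest value of its group for 5 genes, Alox12b, Aloxe3, Grhl3, Sbsn and Tgm1. Flutamide replicate 4 had the highest of its group for 5, Alox12b, Aloxe3, Grhl3, Ivl and Tgm1, and flutamide replicate 1 the lowest for 4, Alox12b, Aloxe3, Lce1f and Sbsn. With each value taken relative to the mean of its group, 30 of the 36 pairs of members had a correlation above 0 over the 14 litters, with a median r of 0.35. Against all genes tested, the members had a median r of 0.022.

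**Figure D3:**
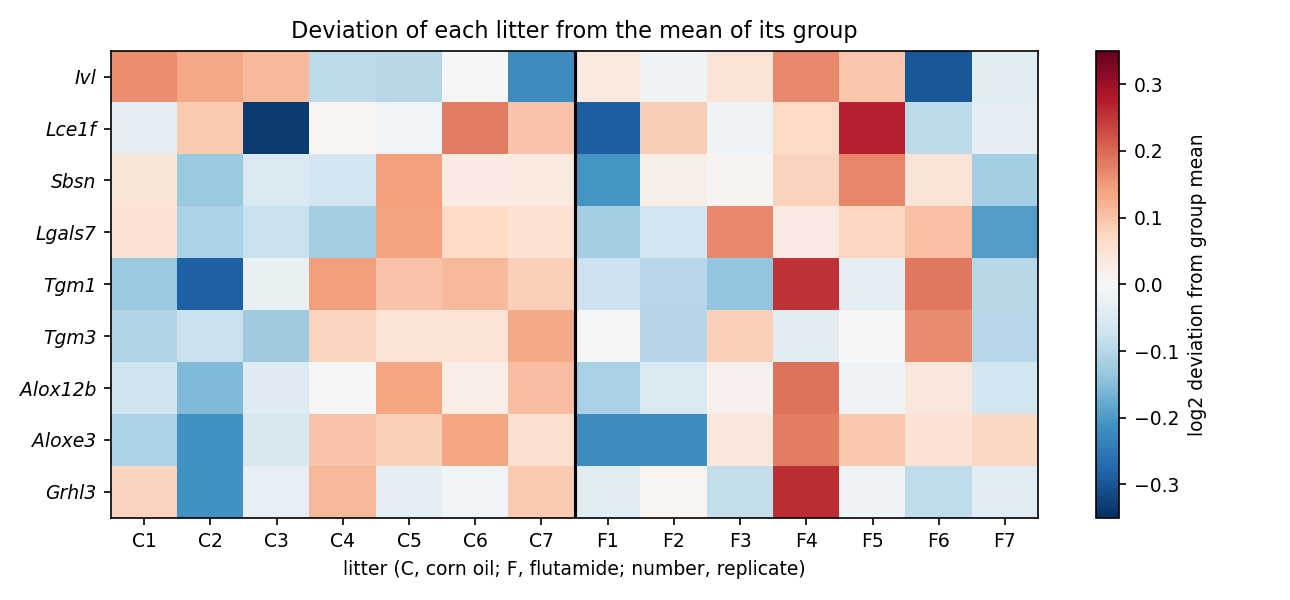
Deviation of each litter (columns; C, corn oil; F, flutamide) from the mean of its group for the 9 genes (rows), on the log2 scale. Corn oil replicate 2 is low for Tgm1, Alox12b, Aloxe3 and Grhl3, and flutamide replicate 4 is high for the same 4 genes.

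The closest pair was Tgm1 and Alox12b, a transglutaminase and a lipoxygenase gene. Their Pearson r was 0.82 (permutation p = 0.00053, adjusted over the 36 pairs 0.0191) and Spearman's rho 0.76 (permutation p = 0.0038, adjusted 0.0804). Only 0.0828% of genes had an r to Tgm1 as high. The r was 0.83 within corn oil and 0.81 within flutamide litters, and 0.65 without the 2 litters farthest from the median of Tgm1.

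The lipoxygenases followed each other, with an r of 0.76 (permutation p = 0.00226, adjusted 0.0271) and a rho of 0.71 (permutation p = 0.00759, adjusted 0.0804). It was 0.81 and 0.73 within the groups and 0.64 without the 2 litters farthest from the median of Alox12b. The genes lie near each other on chromosome 10, with 1 protein-coding gene between them in RefSeq. Tgm1 and Aloxe3 had an r of 0.73 (permutation p = 0.00635, adjusted 0.0457) and a rho of 0.71 (permutation p = 0.00893, adjusted 0.0804), which was 0.98 within corn oil, 0.53 within flutamide litters and 0.57 without 2 litters.

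Sbsn and Lgals7 formed the other close pair, with an r of 0.79 (permutation p = 0.00197, adjusted 0.0271) and a rho of 0.73 (permutation p = 0.00741, adjusted 0.0804). It was 0.95 within corn oil, 0.69 within flutamide litters and 0.76 without 2 litters. These genes share chromosome 1 with 72 protein-coding genes between them.

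Ivl had an r below 0 with 6 of the 8 other members. Its r with Tgm3 was -0.75 (permutation p = 0.00417, adjusted 0.0375), with a rho of -0.65 (permutation p = 0.0214, adjusted 0.128). It was -0.95 within corn oil, -0.55 within flutamide litters and -0.50 without the 2 litters farthest from the median of Ivl. Its median r with the 8 other members was -0.22, against 0.61 for Alox12b, the highest of the 9. Within corn oil litters the r of Ivl was negative with all 8 others, from -0.95 with Tgm3 to -0.34 with Lgals7. In flutamide litters 5 of the 8 were above 0, with 0.61 for Grhl3 and 0.36 for Lce1f the highest, so the negative values other than that with Tgm3 came mainly from corn oil litters. The difference between groups was not tested. Ivl and Lce1f, which share the epidermal differentiation cluster on chromosome 2 with 8 protein-coding genes between them, had an r of 0.004.

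These 5 pairs were those past an adjusted p of 0.05 for r, and 0 pairs passed for rho. How far the calls rested on single litters differed between pairs. With 1 litter left out, Tgm1 and Alox12b stayed past 0.05 in 13 of 14 fits and Sbsn and Lgals7 in 12. The 2 lipoxygenases did in 11, Tgm1 and Aloxe3 in 7, and Ivl and Tgm3 in 5. Without corn oil replicate 2 no pair passed for r, without corn oil replicate 5 there was 1, there were 3 on leaving out flutamide replicate 1 or any of corn oil replicates 1, 3, 4, 6 and 7, and without flutamide replicate 4 there were 11. The direction was steadier. With any 1 litter left out, the r of Tgm1 and Alox12b stayed between 0.75 and 0.87, that of Sbsn and Lgals7 between 0.75 and 0.87, and that of Ivl and Tgm3 between -0.82 and -0.64. All genes of a litter share 1 array and its normalisation, and the part of this in the correlations was not tested.

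**Figure D4:**
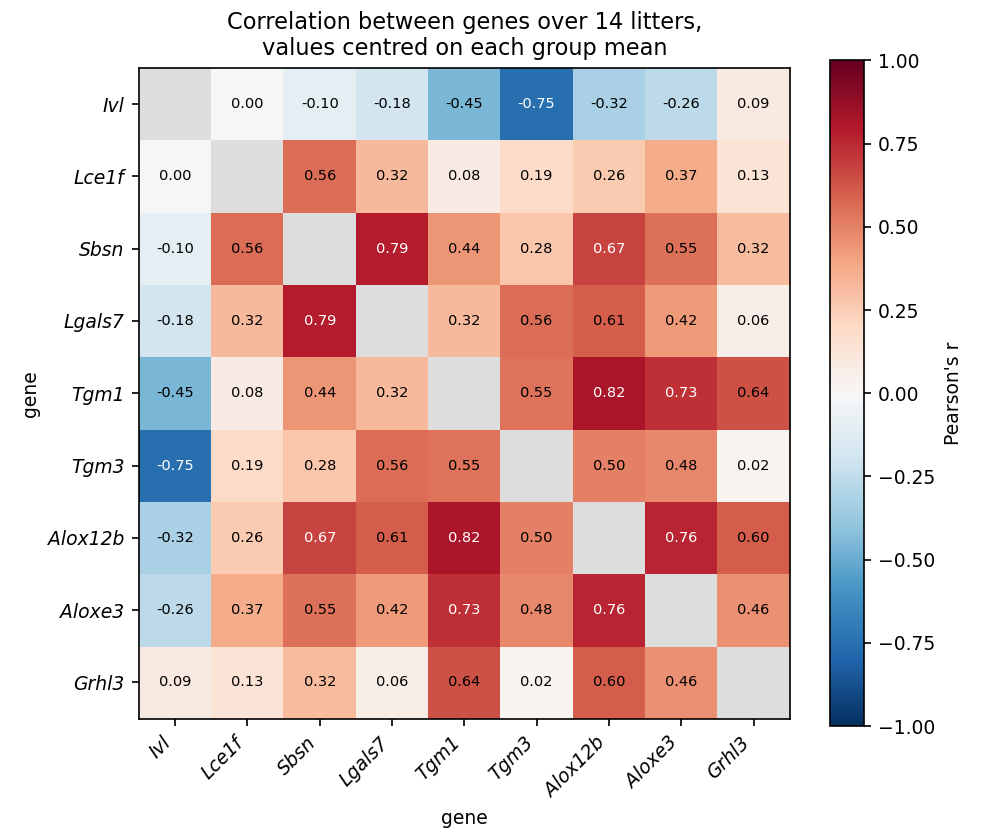
Pearson's r between each pair of the 9 genes over 14 litters, with values centred on the mean of each group (grey, no value for a gene with itself). Tgm1, Alox12b and Aloxe3 form a block of positive values, 0.73 to 0.82, while the row of Ivl is mostly below 0.

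Likeness in pattern was sought outside the set, with predicted genes and olfactory and vomeronasal receptor genes passed over. Of the genes left, those most like the mean of the 9 over the 14 litters were Cbx6 (r = 0.88), Aldh1a1 (0.88), Sec14l1 (0.86), Ubap2 (0.86), Rps6kb2 (0.85) and Tm9sf4 (0.85). Aldh1a1, a retinaldehyde dehydrogenase gene that was dim at a mean of 3.80, was also the gene most like Alox12b, with an r of 0.90. The closest to the others were Tspo for Sbsn (0.92), Retreg3 for Tgm1 (0.91), Ppil1 for Aloxe3 (0.90), Slc34a2 for Lgals7 (0.89), Fam131b for Lce1f (0.88), Sacm1l for Tgm3 (0.87), Tars1 for Grhl3 (0.85) and Rpl22l1 for Ivl (0.85). These are the highest values among the genes left after that step and carry no test.

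Other genes of the envelope and the lipid barrier gave the same absence of calls. Of 112 listed, 66 were measured, 0 passed over all genes in limma, and 6 had an unadjusted p under 0.05, 4 of them higher and 2 lower in flutamide litters. That is against 9.16% of all genes. The median difference was -0.0063, with 31 of the 66 above 0. Without corn oil replicate 5 there were 10 at an unadjusted p under 0.05, with no share of all genes for that fit beside it. Genes such as Lor, Flg, Krt5 and Abca12 were not analysed here.

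Among 10 other envelope proteins, 5 were above 0 and 5 below, with a median of 0.0017. The largest differences were in Cnfn, which encodes cornifelin, at 0.28 (SE 0.07; limma adjusted p = 0.302), and Sprr3, a small proline-rich protein gene of internal stratified epithelia, at 0.33 (SE 0.12; limma adjusted p = 0.420). Csta, the cystatin A gene, differed by 0.08 (SE 0.09). Neither Cnfn nor Sprr3 shared the sign of the 4 genes grouped above as envelope proteins. Lce1m, of the same family as Lce1f, differed by -0.05 (SE 0.08).

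Among 11 cross-linking and processing enzymes, 8 were below 0 and 3 above, with a median of -0.059. The smallest p-values were those of Padi3 and Padi1, peptidylarginine deiminases, at -0.18 (SE 0.08; limma adjusted p = 0.507) and -0.14 (SE 0.07; limma adjusted p = 0.558). Padi3 is also 1 of the 21 inner root sheath and hair shaft markers, 16 of which were below 0, and the part of the hair follicle in its value was not tested. Tgm2, the tissue transglutaminase gene, differed by -0.11 (SE 0.07; limma adjusted p = 0.653), opposite in sign to Tgm1 and Tgm3.

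Among 23 barrier lipid genes, 15 were above 0 and 8 below, with a median of 0.031. Nipal4, a gene of the same inherited ichthyosis group as Alox12b and Aloxe3, differed by 0.18 (SE 0.07; limma adjusted p = 0.466). Cers3, the ceramide synthase of ultra-long chains, differed by 0.16 (SE 0.06; limma adjusted p = 0.403), and Sptlc3, a subunit of serine palmitoyltransferase, by 0.10 (SE 0.06; limma adjusted p = 0.619). Alox12e, a further epidermal lipoxygenase gene, differed by 0.06 (SE 0.06). It was dim, with means of 4.18 in corn oil and 4.23 in flutamide litters.

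Among 22 transcription factors of terminal differentiation, 8 were above 0 and 14 below, with a median of -0.013. Vdr, the vitamin D receptor gene, differed by -0.19 (SE 0.06; limma adjusted p = 0.363). Klf4, a factor required for the skin barrier, differed by 0.12 (SE 0.06; limma adjusted p = 0.550). Grhl2, the relative of Grhl3, differed by -0.09 (SE 0.06; limma adjusted p = 0.707), on the other side of 0 from Grhl3.

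**Figure D5:**
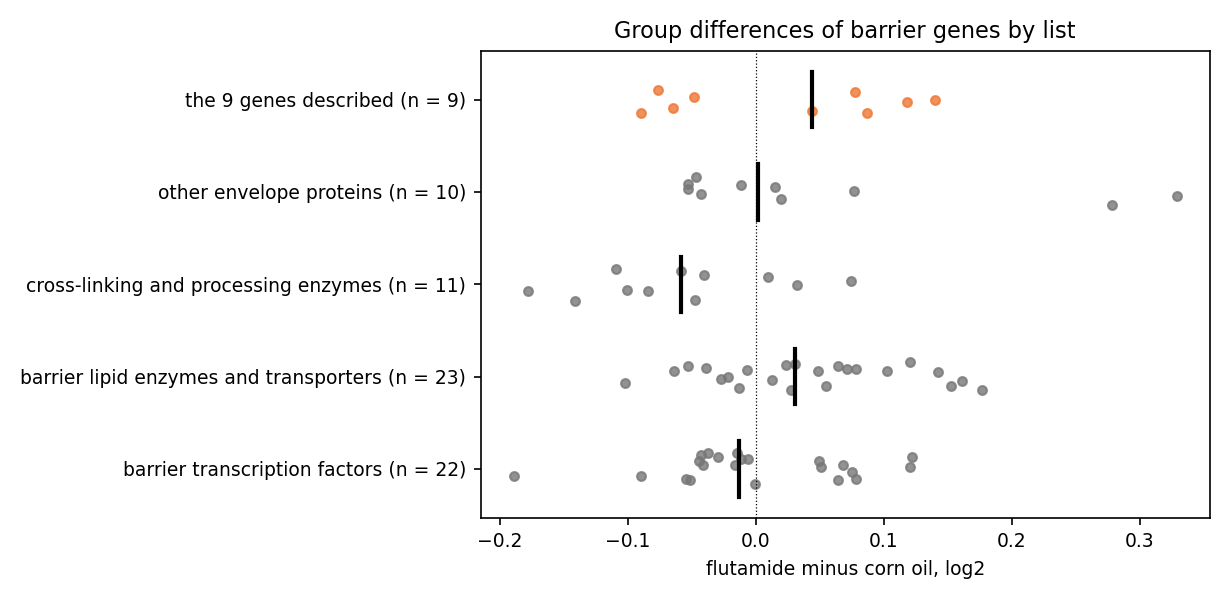
Difference between flutamide and corn oil litters for the 9 genes and for the other measured genes of each list (points, log2 scale; vertical spread within a row is for display), with the median of each row as a black bar. Medians lie between -0.059 and 0.044, and the points farthest to the right are Sprr3 and Cnfn.

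Lists of markers of the cell types that foreskin can hold differed between the groups to unequal degrees, and none of their genes passed over all genes in limma. The level of a list was the mean of its log2 values in each litter. The 8 suprabasal keratinocyte markers were at 8.13 to 8.28 in corn oil and 8.14 to 8.32 in flutamide litters. Of them 4 were above 0 and 1, Serpinb12, was higher at an unadjusted p under 0.05 in limma, against 9.16% of all genes. The 7 basal markers were at 7.90 to 8.06 and 7.84 to 8.06, with 0 at that threshold. With the basal mean as a covariate, the difference was 0.18 for Alox12b, 0.15 for Tgm3, 0.15 for Tgm1 and -0.13 for Ivl, and that of Lgals7 went to -0.0006. These 3 positive differences then had an unadjusted p under 0.05 and the smallest adjusted p was 0.346. The share of all genes at that threshold in this fit is not given here, so the count has no background beside it.

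Of the 5 markers of mucosal epithelium measured, apart from Tgm3 itself, 4 were above 0 and 3 had an unadjusted p under 0.05, against 9.16% of all genes. Their level was 6.59 to 7.21 in corn oil and 6.72 to 7.52 in flutamide litters, a mean difference of 0.32, above that of any of the 9 genes. Sprr3, 1 of the 3, is counted among the other envelope proteins as well. Krt13, a keratin of mucosal stratified epithelium, differed by 0.51 (SE 0.20; limma adjusted p = 0.443). Krt16 differed most, by 0.63 (SE 0.27), with an SD of 0.81 among flutamide litters. Krt76 went the other way, at -0.12 (SE 0.09). Of 21 inner root sheath and hair shaft markers, 16 were below 0 and 6 had an unadjusted p under 0.05, all lower and Padi3 among them, at 6.31 to 6.55 in corn oil and 6.27 to 6.54 in flutamide litters. Tgm3 is expressed in hair follicles as well, and its difference was of the opposite sign. Of 9 smooth muscle and pericyte markers, 8 were below 0 and 4 had an unadjusted p under 0.05, all lower, at 7.09 to 7.34 in corn oil and 6.96 to 7.20 in flutamide litters, a mean difference of -0.17. Des, the desmin gene, differed by -0.34 (SE 0.07; limma adjusted p = 0.302). Of 7 skeletal muscle markers 6 were below 0, 1 of them at an unadjusted p under 0.05, with a mean difference of -0.17. All 5 endothelial markers (mean difference -0.096), 7 of 9 immune cell markers (-0.063), 5 of 7 sebocyte markers (-0.047) and 4 of 8 fibroblast markers (-0.025) were below 0. At an unadjusted p under 0.05 were 1 sebocyte marker, Mc5r, higher, and 1 fibroblast marker, Dpt, lower. There were 0 endothelial or immune cell markers at that threshold. The part of these other cells in the differences of the 9 genes was not tested.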

How the data were processed

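Affymetrix Gene 1.0 ST arrays gave 1 value per probe set and litter, 28826 probe sets by 14 samples. The authors deposited log2 values, made with RMA per the submitters' processing notes; its version and the genome build were not given in the sources used here. RMA shrinks differences of dim probe sets. Total RNA was amplified and biotin labelled, per the labels' protocols. The number of arrays limits the precision.

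Gene names came from the platform annotation in GEO, updated by gene number through RefSeq's table for GRCr8. Of them 15209 had 1 symbol, giving 14497 genes, of which 14472 matched the table. The brightest probe set stood for a gene. Flutamide and corn oil litters were set against each other with lmFit and eBayes of limma 3.58.1 (R 4.3.3). Its two-sided p-values were adjusted by the Benjamini-Hochberg method across the 14497 genes, with a threshold of 0.05. Standard errors and 95% intervals are limma's. The exact permutation test of group means used all 3432 splits, with a smallest p of 0.000583, and was adjusted over all genes. Correlations between members used values centred on group means and 100000 permutations within groups. The fit was tested on simulated data.

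Members, roles and lists were chosen with earlier results of these data known. Named genes were the 9 members, the 3 with the smallest p in each list, set key genes and those most alike in pattern. Krt13, Krt16, Krt76, Krt2, Krt77, Skint1, Des, Col1a1 and Lce1m were named after their values were seen. Alternatives were other genes tested, probe set summaries, scalings, variance models, covariates, a replicate block and each litter left out; leaving out litters for pairs was added after the data were seen. The replicate numbers are shared between groups but not said to mark a shared dam or day. Deviations of same-numbered samples correlated from -0.07 to 0.15.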

Additional observations from a re-analysis of the deposited data

Results flagged for a closer look

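Some single litters stood apart from the other 6 of their group, by a gap above Dixon's 95% critical value. Of 80 groups of values looked at this way 9 stood out, where chance gives about 5%. Among the members, Lce1f was at 7.61 in corn oil replicate 3, against 7.91 to 8.13 in the others, and Grhl3 at 8.28 in flutamide replicate 4, against 7.93 to 8.02. Among the other barrier genes, Cnfn was at 9.76 in flutamide replicate 1 (the others 9.95 to 10.10), Padi3 at 5.22 in corn oil replicate 1 (5.48 to 5.67), Padi1 at 4.63 in flutamide replicate 4 (4.88 to 5.00) and Sptlc3 at 9.79 in flutamide replicate 3 (9.52 to 9.63). The mean of the endothelium markers was 7.55 in corn oil replicate 1 (7.13 to 7.28). The mean of the immune cell markers was 6.47 in corn oil replicate 1 (6.05 to 6.15) and 6.56 in flutamide replicate 1 (5.93 to 6.11). The part of these in the members' values was not tested.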

How the results depend on the processing

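Under 25 alternative settings the 9 differences stayed above an adjusted p of 0.05, the lowest being 0.346. In 6 settings the difference is the same by construction, and in the other 19 all 171 values kept their direction. Most of these 19 only left out 1 litter, and some values were close to 0. That of Lgals7 was -0.0006 with the basal keratinocyte mean as a covariate. The count of members at an unadjusted p under 0.05, 1 in the reported fit, was 2 with an intensity trend and robust variance and 3 with the basal keratinocyte mean as a covariate. With single litters left out it ran from 0 to 2, that of the other barrier genes from 4 to 10, and that of pairs of members past an adjusted p of 0.05 from 0 to 11. The shares of all genes under these alternatives are not given here, so the counts of genes have no background beside them. With the replicate number as a block (replicate block) the counts were 0 members called and 1 at an unadjusted p under 0.05, and the block changed no call; same-numbered samples deviated together with a correlation over 0.1 in 1 of 7 pairs. Pairs with an r above 0 ranged from 28 to 30. Effects on dim genes are limited by their signal over background.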
